A study of Mus musculus with 33 samples.

Results

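Coagulation and fibrinolysis are described here through 34 genes of the clotting cascade, its inhibitors and the plasmin system, measured in mouse liver. The genes were picked by name from the 19169 rows of the gene count table, and all 34 passed the filter on low counts. Polyadenylated RNA of whole liver was sequenced in 33 libraries of 4 groups, defined by genotype and diet. Knock-in (KI) mice carried Nlrp3A350V/+CreT, an activated allele of the inflammasome sensor Nlrp3 switched on by a Cre recombinase that tamoxifen induces, and wild-type (WT) mice served as the comparison. Mice of each genotype were given chow with placebo (control) or with GS-444217, an inhibitor of the stress kinase ASK1 (ASK1i), for 6 weeks. The WT control group held 10 libraries, 7 of them from females. Of 8 WT ASK1i libraries 4 were from females, as was 1 of 5 in KI control, and KI ASK1i had 5 of each sex among 10. The labels do not name the promoter of the Cre, the ages, or whether WT mice received tamoxifen. The labels do not state that each library came from its own mouse, and p-values therefore cover only the spread among libraries, which may be in part technical.

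Total counts ran from 28099700 to 40008100 per library. The hepatocyte markers were strongly expressed in all 33, with albumin at 2.12% to 11.4% of counts, which fits the liver label. Nlrp3 itself lay at 1.62 to 4.96 CPM (the deposited counts scaled to library size by the TMM method) in WT control and 7.87 to 15.6 in KI control. One library, labelled KI ASK1i replicate 5 and taken from a female, stood apart from its group. Its Nlrp3 was 2.10 CPM against 5.51 to 11.0 in the other 9 KI ASK1i libraries, and it lay among the WT libraries on the first principal component. It is kept in the values below, and genotype differences on the ASK1i diet are given with and without it. Titles also carry an L code of unstated meaning, and no L code holds both WT control and KI control libraries.

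Clotting runs as a chain of liver-made protease precursors. Tissue factor with factor VII starts it, factors IX, X and XI with the cofactors VIII and V amplify it, and thrombin then cuts fibrinogen into fibrin, which factor XIII cross-links. Antithrombin and other serpins, tissue factor pathway inhibitor and the protein C system restrain the chain, and plasmin, made from plasminogen by the activators tPA and uPA, dissolves the clot. Fibrinogen is a classical acute-phase protein of the hepatocyte, whereas tissue factor pathway inhibitor, von Willebrand factor, thrombomodulin and the protein C receptor are best known from endothelium, and the factor XIII A subunit from platelets and macrophages.

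On control chow, 16 of the 34 genes were higher in KI than in WT liver and 10 were lower, at an adjusted p of 0.05 or less in edgeR's quasi-likelihood test. Over all 14934 genes tested, 27.8% were called higher and 28.9% lower, beside 47.1% and 29.4% of the members. The share of lower members was thus near the background and the share of higher members above it. The members were chosen with earlier results of these data known, so the larger share is a description and no test. The median log2 fold change was 0.35 over the members and -0.03 over all genes tested. In 12 of the higher and 6 of the lower members the KI and WT libraries did not overlap at all, which held for 16.3% (higher) and 12.8% (lower) of all genes tested. With library totals in place of TMM scaling the split was 19 higher and 7 lower, beside 33.6% and 19.5% of all genes. Called genes lay on both sides, as the plot of fold changes shows.

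**Figure D1:**
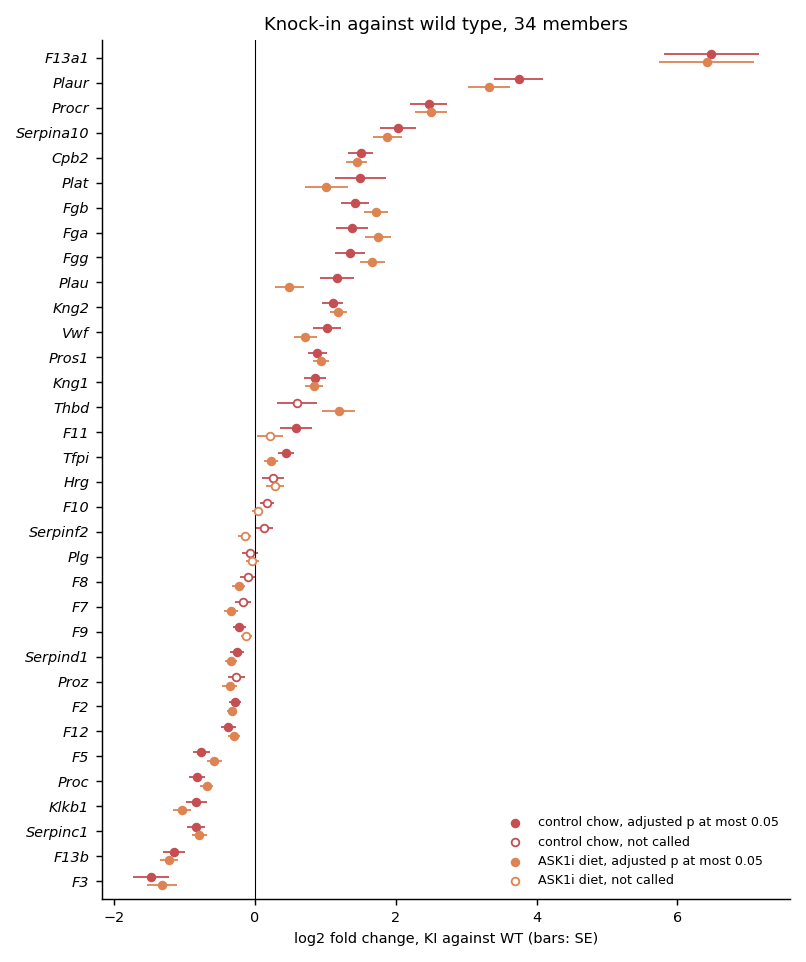
Log2 fold change of each of the 34 genes, KI against WT, on control chow (red) and on the ASK1i diet (orange), with bars of 1 standard error. Filled points passed an adjusted p of 0.05, and the genes run from F13a1 with the highest value on control chow to F3 with the lowest.

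All 3 fibrinogen genes rose in KI liver. The 3 chains, encoded by Fga, Fgb and Fgg, form the soluble precursor of fibrin. They are neighbours on chromosome 3 of mm10, with Fgg at chr3:83007896-83015049, Fga at chr3:83026153-83033617 and Fgb, on the opposite strand, at chr3:83042305-83049790. Their windows before the RefSeq transcription start are printed because the chains moved in step. Capitals mark matches to TTCNNNGAA, the palindrome bound by STAT factors, to CTGGGAA, the core of the interleukin-6 response element of acute-phase genes, and to TTGCNNAA, a site of C/EBP factors. Both strands were searched in 250 bases, and bases within an annotated exon were left out of print, which shortened the Fga window to 173 bases. The RefSeq starts of Fgb and Fgg lie 73 and 172 bases from the starts in the deposited table. The sequences are those of RefSeq on GRCm38.p6 (mm10), from chr3:83025903-83026075 (plus strand), chr3:83049864-83050113 (minus strand) and chr3:83007474-83007723 (plus strand), each read 5′ to 3′ along the gene.
Fga: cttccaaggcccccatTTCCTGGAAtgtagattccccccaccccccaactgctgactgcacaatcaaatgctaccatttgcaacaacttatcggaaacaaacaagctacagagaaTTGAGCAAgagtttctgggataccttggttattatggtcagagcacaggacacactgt
Fgb: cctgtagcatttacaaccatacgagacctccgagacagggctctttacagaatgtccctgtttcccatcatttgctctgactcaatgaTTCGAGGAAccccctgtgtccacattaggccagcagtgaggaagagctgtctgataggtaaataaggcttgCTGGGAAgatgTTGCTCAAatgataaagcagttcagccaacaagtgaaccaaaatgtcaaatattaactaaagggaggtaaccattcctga
Fgg: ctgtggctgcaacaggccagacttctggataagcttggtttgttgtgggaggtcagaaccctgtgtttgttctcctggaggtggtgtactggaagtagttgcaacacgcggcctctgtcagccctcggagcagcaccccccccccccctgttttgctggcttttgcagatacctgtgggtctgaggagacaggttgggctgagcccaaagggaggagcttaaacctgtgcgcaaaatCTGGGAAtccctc
The Fga window held TTCCTGGAA from 234 to 226 bases before the start, and Fgb held TTCGAGGAA from 162 to 154 and CTGGGAA from 91 to 85. In Fgg, CTGGGAA lay from 13 to 7 bases before the start. A C/EBP match stood in Fga, where the minus strand carries it, and in Fgb.

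Among 32851 RefSeq windows of 250 bases, 7.02% held the STAT palindrome, 9.102% CTGGGAA, 14.57% either of these 2 elements and 9.564% the C/EBP letters. Windows were at hand for 26 of the 34 genes. Of the 15 members called higher in KI on both diets, 10 had a window, and 5 of these held the STAT palindrome or CTGGGAA (Pros1, Fga, Fgb, Fgg and Tfpi). Of the 9 called lower on both diets, 8 had a window and 0 held either. F9, called lower on control chow only, held both. The C/EBP letters stood in 5 of the 10 and 1 of the 8. A site of HNF1 factors was searched as well and leaned the other way. It stood in 0.3714% of all windows, in 0 of the 10 and in 1 of the 8 (F13b). A match of letters is a description and no evidence of binding.

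Fga measured 3651 to 6015 CPM with a median of 4153 in the 10 WT control libraries and 7934, 9598, 9627, 13128 and 16232 CPM in the 5 KI control libraries. Its log2 fold change was 1.38 (SE 0.22, adjusted p = 2.74e-06), a 2.60-fold difference. Fgb spanned 2820.1 to 4422 CPM with a median of 3181 in WT control against 6669, 7185, 7342, 9940.5 and 12635 CPM in KI control. The log2 fold change of Fgb was 1.42 (SE 0.21, adjusted p = 5.54e-07). For Fgg, the corresponding levels were 2221 to 3572 CPM with a median of 2575 and 5251, 5867, 6189, 7946 and 9518 CPM, with a log2 fold change of 1.35 (SE 0.21, adjusted p = 2.12e-06). Every KI control library exceeded every WT control library for each of the 3 chains. KI control replicate 1, the only female library of its group, was the highest for all of them. The 3 chains together took 0.844% to 1.36% of all counts in WT control and 2.18% to 4.12% in KI control. The ratio of Fga to Fgb counts was 1.33 ± 0.0690 (SD, n = 10) in WT control and 1.29 ± 0.0587 (n = 5) in KI control, and that of Fgg to Fgb 0.817 ± 0.0360 and 0.800 ± 0.0391. The balance of the 3 chains therefore differed by less than the spread between libraries while their level rose.

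The subunits of factor XIII, the transglutaminase that cross-links fibrin, went in opposite directions. F13a1, the catalytic A subunit (chr13:36867178-37050244), was nearly undetected in WT control, with 0 to 13 counts per library (0 to 0.422 CPM). In KI control it reached 9.26, 12.7, 21.7, 26.2 and 28.0 CPM, with 333 to 1120 counts. The log2 fold change was 6.48 (SE 0.68, adjusted p = 2.83e-09), the largest of the 34 genes, and rests on few WT counts. F13b, the carrier B subunit secreted by hepatocytes (chr1:139501707-139523756), measured 194 to 263 CPM with a median of 223 in WT control and 92.2, 93.8, 105, 105 and 107 CPM in KI control. It fell, with a log2 fold change of -1.16 (SE 0.15, adjusted p = 6.88e-07). Groups were apart for both subunits. Markers of platelets and megakaryocytes (7 of 7 called higher) summed to 3.72 to 7.46 CPM in WT control and 12.2 to 58.8 in KI control. Those of macrophages (5 of 5 measured called higher) summed to 175 to 447 CPM in WT control and 692 to 1051 in KI control, and those of neutrophils (5 of 5) to 5.59 to 17.7 and 570 to 2601. No marker in these lists was at 0 throughout, and their part in the F13a1 result was not tested. In whole liver, fewer cells of a type and less RNA per cell cannot be told apart.

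**Figure D2:**
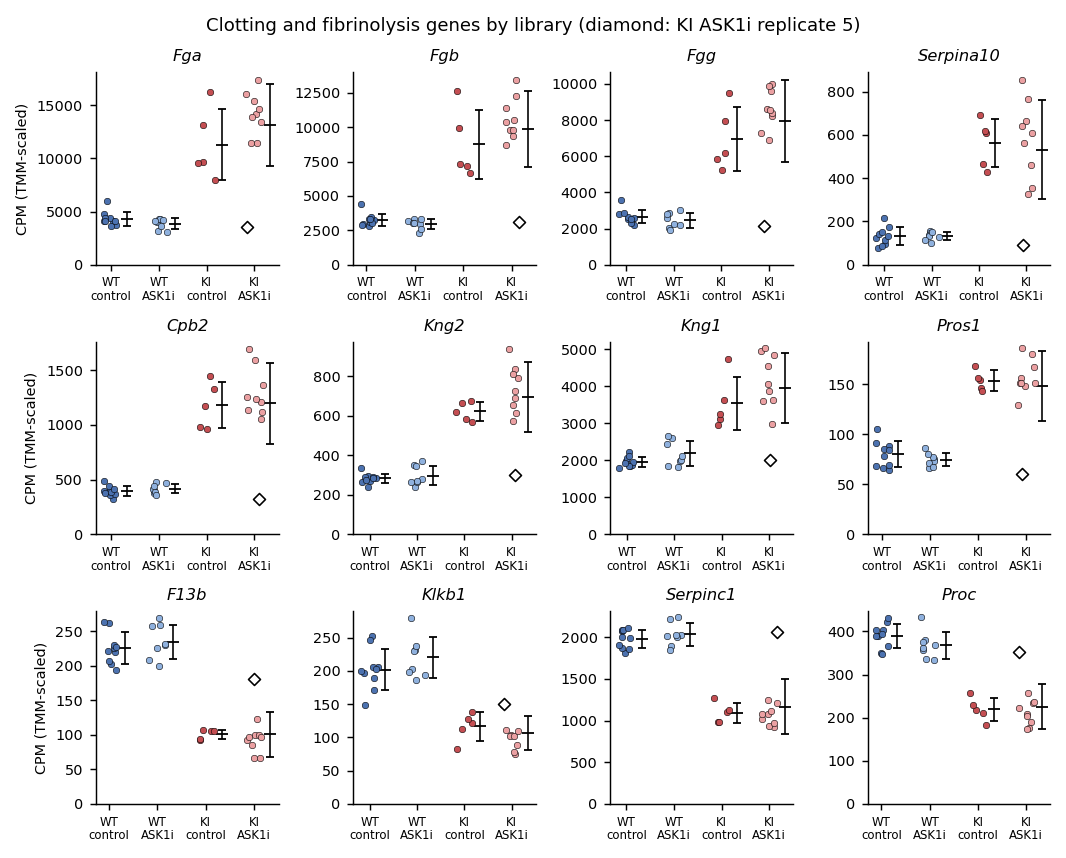
CPM of 12 plasma protein genes in each of the 33 libraries (points), with mean and SD of each group (black bars). The fibrinogen chains, Serpina10, Cpb2, Kng1, Kng2 and Pros1 were higher in KI, F13b, Klkb1, Serpinc1 and Proc were lower, and KI ASK1i replicate 5 (diamond) lay at the WT end of its group in each panel.

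At the start of the cascade, F3 fell and its inhibitor rose. F3 encodes tissue factor, the membrane receptor of factor VII. It measured 7.76 to 15.1 CPM with a median of 12.3 in WT control and 2.45, 3.18, 3.74, 4.59 and 5.35 CPM in KI control, with no overlap. The log2 fold change was -1.48 (SE 0.26, adjusted p = 3.95e-05). Tfpi, the inhibitor of the tissue factor complex, measured 6.73 to 10.4 CPM with a median of 8.84 in WT control and 10.3, 11.6, 12.8, 12.9 and 13.8 CPM in KI control. Its difference was small, 0.44 (SE 0.11, adjusted p = 0.00163) on the log2 scale, and 4 of 5 KI libraries exceeded all WT ones. The call for Tfpi was lost with L code in the fit. F7, the protease partner of tissue factor, lay at 73.4 to 117 CPM with a median of 95.8 in WT control and 72.7, 79.7, 89.4, 93.1 and 97.2 CPM in KI control, overlapping, and was not called (log2 fold change -0.17, SE 0.12, adjusted p = 0.205).

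The serine protease precursors of the middle cascade moved little. F2, prothrombin, measured 1281 to 1498 CPM with a median of 1384 in WT control and 988, 1009.6, 1025, 1197 and 1303 CPM in KI control. It was called lower, with a log2 fold change of -0.28 (SE 0.09, adjusted p = 0.00558), and only KI control replicate 1 fell within the WT range. The call was lost with library totals, with replicate number in the fit and in numbered titles alone. F9, the factor deficient in haemophilia B, measured 194 to 271 CPM with a median of 226 and 182, 186, 191, 228 and 230.2 CPM and was called at the margin, -0.22 (SE 0.09, adjusted p = 0.0353). That call was lost in 11 of 16 alternative fits and on leaving out any 1 of 14 libraries (WT control replicates 1, 6, 8, 1P or 2P, WT ASK1i replicates 6, 7 or 2P, KI control replicates 1, 2, 3 or 1P or KI ASK1i replicates 3 or 4P). F11, the precursor of factor XIa, spanned 37.8 to 79.0 CPM with a median of 53.2 in WT control and 66.2, 76.3, 84.8, 91.6 and 96.8 CPM in KI control. The call for F11 (log2 fold change 0.59, SE 0.23, adjusted p = 0.0249) was lost without KI control replicate 1, the only female of its group, and in 7 alternative fits. Among these were males alone and group and sex without title set, and with L code in the fit it was -0.13 (adjusted p = 0.787). The sexes were unevenly spread, and within males F11 averaged 79.7 CPM in 4 KI and 70.5 CPM in 3 WT control libraries, overlapping. F10, the protease that forms thrombin, was not called (log2 fold change 0.17, SE 0.10, adjusted p = 0.15), though it was without KI control replicate 1P.

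Of the cofactors, factor V fell and the carrier of factor VIII rose. F5 measured 568 to 849 CPM with a median of 658 in WT control and 311, 350.2, 389.9, 418 and 466 CPM in KI control, with no overlap. F5 had a log2 fold change of -0.76 (SE 0.12, adjusted p = 6.58e-06). Vwf, which carries factor VIII and tethers platelets, measured 6.51 to 13.8 CPM with a median of 10.5 and 14.4, 19.0, 20.3, 26.4 and 28.4 CPM, also apart. Vwf was thus 2.03-fold higher, at 1.02 (SE 0.20, adjusted p = 4.50e-05) on the log2 scale. F8 lay at 20.8 to 26.8 CPM with a median of 23.4 and 17.5, 19.5, 23.8, 24.9 and 25.2 CPM and was not called (log2 fold change -0.10, SE 0.12, adjusted p = 0.4935). Markers of liver endothelium (4 of 6 called higher, 1 lower) summed to 254 to 351 CPM in WT control and 335 to 380 in KI control, where Vwf was also higher. The part of the endothelial and platelet markers in the Vwf result was not tested.

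In the contact and kinin system, which starts clotting on surfaces and releases bradykinin, the proteases fell and their kininogen substrates rose. Klkb1, plasma prekallikrein, measured 149 to 252 CPM with a median of 202 in WT control and 82.0, 112, 122, 128 and 138 CPM in KI control, with no overlap and a log2 fold change of -0.83 (SE 0.15, adjusted p = 4.41e-05). F12, the contact protease, was called lower (log2 fold change -0.38, SE 0.10, adjusted p = 0.00248), a call lost with L code in the fit and in males alone. Kng1 measured 1785 to 2224 CPM with a median of 1939.6 in WT control and 2959.6, 3115, 3259, 3621 and 4735 CPM in KI control, with a log2 fold change of 0.85 (SE 0.16, adjusted p = 2.12e-05). Kng2, the second mouse kininogen gene, measured 242 to 336 CPM with a median of 284 and 571, 586, 619, 665 and 678 CPM, with 1.11 (SE 0.15, adjusted p = 2.54e-07). Both were apart between the groups. The pair share 557 words of 50 bases, 17.18% of those of Kng1 and 19.39% of those of Kng2, so the division of reads between them is uncertain.

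Neighbouring genes did not always share a call, and differences between neighbours were not tested. F11 (chr8:45241170-45262031) and Klkb1 (chr8:45269451-45308559) are neighbours on chromosome 8 with calls in opposite directions, the F11 call being fragile as above. F7 (chr8:13026034-13035809), F10 (chr8:13037308-13056676) and Proz (chr8:13060908-13075006) lie side by side on the same chromosome, and none of the 3 was called on control chow. Hrg (chr16:22951072-22961659) adjoins Kng2 (chr16:22985852-23029101) and Kng1 (chr16:23058300-23082078) on chromosome 16. Both kininogens were called higher, whereas Hrg was not called, though its fold change had the same direction.

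In the protein C system, the plasma zymogen fell while its cofactor and receptor rose. Protein C, encoded by Proc, is the anticoagulant protease that inactivates factors V and VIII. It measured 347 to 431 CPM with a median of 392 in WT control and 184, 209.9, 217, 229 and 257 CPM in KI control, with a log2 fold change of -0.82 (SE 0.12, adjusted p = 1.25e-06). Pros1, which encodes its cofactor protein S, went the other way, with 63.9 to 105 CPM with a median of 81.6 in WT control and 143, 146, 154, 156 and 168 CPM in KI control (log2 fold change 0.88, SE 0.13, adjusted p = 2.01e-06). Procr, the endothelial receptor that presents protein C for activation, rose, with 0.922 to 2.00 CPM with a median of 1.38 in WT control and 5.37, 6.22, 7.32, 7.60 and 10.6 CPM in KI control. That is a log2 fold change of 2.47 (SE 0.26, adjusted p = 8.92e-09), or 5.54-fold. The groups were apart for all 3 genes. Thbd, thrombomodulin, which turns thrombin towards protein C, lay at 4.04 to 11.3 CPM in WT control and 6.48 to 9.82 CPM in KI control and missed the threshold (log2 fold change 0.60, SE 0.29, adjusted p = 0.0768). Thbd was called by DESeq2, with library totals, with only the groups compared in the fit, and on leaving out WT control replicate 3 or KI ASK1i replicate 6. Proz, protein Z, missed the threshold too (log2 fold change -0.26, SE 0.13, adjusted p = 0.0762) and was called on leaving out KI control replicate 4 or KI ASK1i replicate 2.

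The serpin inhibitors were divided. Serpinc1, antithrombin, the main inhibitor of thrombin and factor Xa, fell, with 1811 to 2114 CPM with a median of 1995 in WT control and 978, 982, 1104, 1127 and 1268 CPM in KI control, with no overlap (log2 fold change -0.84, SE 0.13, adjusted p = 5.44e-06). Serpina10, the protein Z-dependent inhibitor of factor Xa, rose, with 79.5 to 214 CPM with a median of 129 in WT control and 428, 465, 608, 618 and 692 CPM in KI control, also apart. Its log2 fold change was 2.03 (SE 0.25, adjusted p = 6.31e-08), 4.08-fold, whereas Proz, which encodes the cofactor of this inhibitor, was at -0.26 (SE 0.13). Serpind1, heparin cofactor II, lay at 486 to 669.8 CPM with a median of 598 and 494, 496, 506, 516 and 558 CPM, with every KI library inside the WT range. It was called lower at -0.26 (SE 0.10, adjusted p = 0.0304), and the call was lost in 6 alternative fits and on leaving out any of 4 libraries (WT control replicates 8 and 2P, KI control replicates 3 and 1P).

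Among fibrinolysis genes, the activators and the receptor rose while plasminogen did not pass the test. Plaur, the cell-surface receptor of uPA, measured 0.350 to 0.944 CPM with a median of 0.595 in WT control and 3.95, 4.27, 9.58, 10.6 and 10.6 CPM in KI control. The log2 fold change was 3.74 (SE 0.35, adjusted p = 1.93e-09), 13.4-fold, with no overlap. Plau, which encodes uPA, measured 1.62 to 3.42 CPM with a median of 2.54 and 3.37, 4.44, 5.69, 6.10 and 6.44 CPM (log2 fold change 1.16, SE 0.24, adjusted p = 0.000136), a call lost with L code in the fit. Plat, which encodes tPA, was low in all libraries, at 0.303 to 1.25 CPM with a median of 0.499 in WT control and 0.999, 1.70, 1.81, 2.23 and 2.35 CPM in KI control (log2 fold change 1.495, SE 0.36, adjusted p = 0.000555). For both activators 4 of 5 KI libraries exceeded all WT libraries. Plau and Plaur are also expressed by leukocytes, and the macrophage and neutrophil markers given above were higher in the same libraries. Their part was not tested. Plg, plasminogen itself, measured 2129 to 2602 CPM in WT control and 1884 to 2774 CPM in KI control, with a log2 fold change of -0.07 (SE 0.11) and a 95% interval of -0.29 to 0.15.

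Of the genes that slow fibrinolysis, 1 of 3 rose. Cpb2 encodes TAFI, a carboxypeptidase that trims fibrin so that plasmin binds less. It measured 327 to 488 CPM with a median of 390.05 in WT control and 966, 986, 1174, 1326 and 1446 CPM in KI control, with no overlap, a 2.83-fold difference (SE 0.18 on the log2 scale, adjusted p = 4.75e-08). Serpinf2, antiplasmin, overlapped between the groups (641 to 940.4 CPM and 649, 729, 894, 899 and 1136 CPM) and was not called (log2 fold change 0.13, SE 0.12, adjusted p = 0.345). Hrg, histidine-rich glycoprotein, which binds plasminogen and heparin, lay at 915 to 1265 CPM and 1025, 1186, 1231, 1558 and 1717 CPM and was not called (log2 fold change 0.26, SE 0.15, adjusted p = 0.14), except without KI control replicate 1P.

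**Figure D3:**
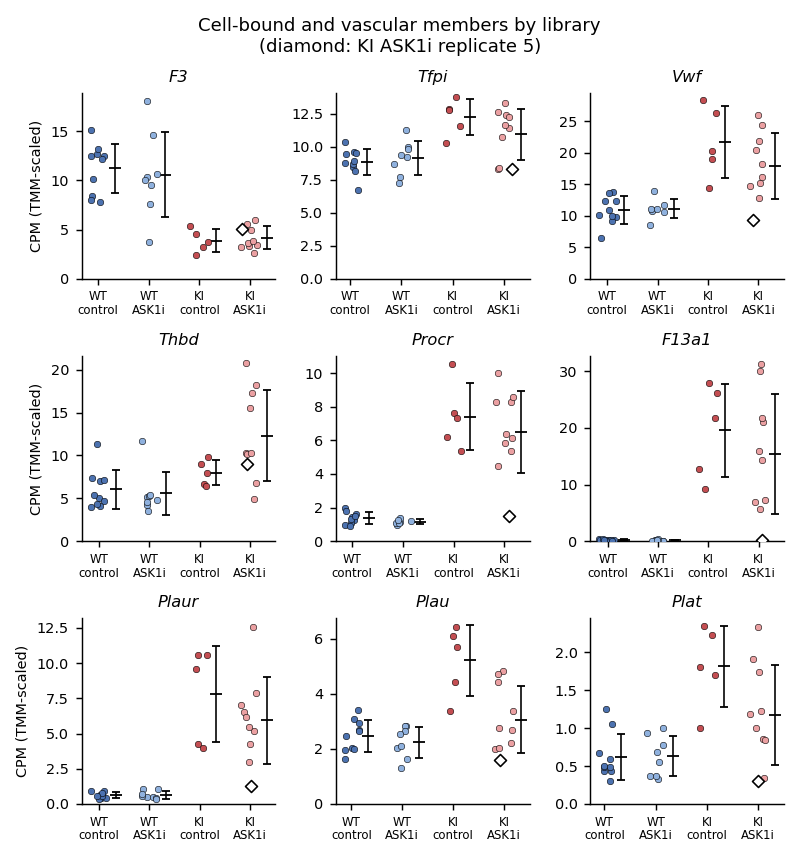
CPM of 9 genes whose products are mostly bound to cells or made by endothelium, platelets or leukocytes, in each of the 33 libraries (points), with mean and SD of each group. F3 was lower in KI, Procr, F13a1 and Plaur were higher in KI with replicate 5 (diamond) lowest in its group, and Plau was at 3.37 to 6.44 CPM in KI control and 1.58 to 4.83 CPM in KI ASK1i.

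The same contrast on the ASK1i diet used other libraries, 10 KI and 8 WT. There, 16 of the 34 genes were called higher and 12 lower, beside 30.3% and 28.8% of all genes tested. Without KI ASK1i replicate 5 the counts were 17 and 12, beside 4742 and 4693 of all 14928 genes then tested. All 28 calls remained with their direction, 26 of them with a larger fold change. In all, 15 members were called higher and 9 lower on both diets, and 0 were called in opposite directions, beside 23.8%, 23.0% and 0.0335% of all genes tested. F11 and F9 were called on control chow only, F8, F7, Proz (lower) and Thbd (higher) on the ASK1i diet only, and F10, Plg, Serpinf2 and Hrg on neither. The interaction test called none of these 6 genes. With all libraries, 2 higher members (Procr and Plaur) and 2 lower ones (Klkb1 and F13b) were apart between the genotypes, beside 2.36% and 3.91% of all genes. Without replicate 5 these counts were 11 and 6, beside 13.0% and 12.0%.

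Fga measured 3057 to 4283 CPM with a median of 4092 in WT ASK1i and 11418 to 17417 CPM in 9 KI ASK1i libraries, and 3517 CPM in replicate 5. The log2 fold change was 1.74 (SE 0.18, adjusted p = 1.21e-08), and 1.87 (SE 0.12, adjusted p = 1.63e-13) without that library. Fgb had a log2 fold change of 1.71 (SE 0.17, adjusted p = 5.77e-09), and 1.84 without it, and Fgg had 1.67 (SE 0.18, adjusted p = 1.40e-08), and 1.79. The 3 chains took 0.696% to 1.06% of counts in WT ASK1i and 2.67% to 3.98% in the 9 KI libraries, against 0.877% in replicate 5. F13a1 measured 0.0549 to 0.332 CPM in WT ASK1i and 5.62 to 31.2 CPM in the 9, with 0.244 CPM in replicate 5 (log2 fold change 6.42, SE 0.68, adjusted p = 2.27e-09, 6.60 without replicate 5). The B subunit F13b measured 199 to 269 CPM with a median of 230.3 in WT ASK1i and 66.7 to 123 CPM in the 9, with 181 CPM in replicate 5 (log2 fold change -1.22, SE 0.13, adjusted p = 5.77e-09, -1.36 without replicate 5). Replicate 5 was the lowest of the 10 for every fibrinogen chain and F13a1 and the highest for F13b, and for each of these 5 genes the fold change was larger without it. Its summed macrophage, neutrophil and platelet markers were 261, 9.35 and 5.64 CPM, and its hepatocyte markers 108968 CPM, all inside the ranges of WT ASK1i (222 to 292, 3.78 to 9.76, 3.32 to 6.11 and 99837 to 137768 CPM). The hepatocyte sum is mostly albumin, which was 9.27% of the counts of replicate 5.

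Tissue factor again fell, with 3.71 to 18.1 CPM with a median of 10.2 in WT ASK1i and 2.59 to 5.98 CPM with a median of 3.74 in KI ASK1i. F3 had a log2 fold change of -1.33 (SE 0.21, adjusted p = 3.50e-06) here, -1.35 without replicate 5, and WT ASK1i replicate 2, at 3.71 CPM, lay inside the KI range. Tfpi was called at the margin (log2 fold change 0.23, SE 0.09, adjusted p = 0.0399, 0.26 with an adjusted p of 0.0169 without replicate 5), and the call was lost in 6 alternative fits and on leaving out any 1 of 9 libraries (WT ASK1i replicates 2, 4, 6 or 1P, KI control replicates 2 or 3 or KI ASK1i replicates 1, 2 or 4). F7 was called lower, at 83.4 to 104 CPM with a median of 97.1 against 49.7 to 102 CPM with a median of 75.2 (log2 fold change -0.34, SE 0.10, adjusted p = 0.00329, -0.33 without replicate 5), a call lost in males alone. F2 measured 1286 to 1602 CPM with a median of 1348 and 842 to 1346 CPM with a median of 1092 and was called lower (log2 fold change -0.33, SE 0.07, adjusted p = 0.00017, -0.37 without replicate 5), while F9 (-0.12, SE 0.07, -0.13 without replicate 5), F10 (0.04, SE 0.08, 0.07 without replicate 5) and F11 (0.21, SE 0.19, 0.32 without replicate 5) were not called. F5 was lower, at 494 to 736 CPM with a median of 590.3 against 299 to 551 CPM with a median of 385 (log2 fold change -0.58, SE 0.10, adjusted p = 1.32e-05, -0.64 without replicate 5), and 9 of 10 KI libraries lay below all WT ones. The call for F8 (log2 fold change -0.23, SE 0.10, adjusted p = 0.0351, -0.24 without replicate 5) was lost in 12 alternative fits and on leaving out any 1 of 16 libraries (WT control replicates 1, 8, 1P or 2P, WT ASK1i replicates 3, 5, 7, 1P or 2P, KI control replicates 1, 4 or 1P or KI ASK1i replicates 6, 2P, 3P or 4P). Vwf was higher, at 8.49 to 13.9 CPM with a median of 11.0 against 9.32 to 25.9 CPM with a median of 17.2 (log2 fold change 0.71, SE 0.16, adjusted p = 0.00049, 0.81 without replicate 5).

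Of the contact genes, Klkb1 was apart between the genotypes on this diet even with replicate 5, at 187 to 279 CPM with a median of 217 and 74.7 to 150.1 CPM with a median of 103 (log2 fold change -1.03, SE 0.13, adjusted p = 5.65e-08, -1.11 without replicate 5). F12 was lower (log2 fold change -0.29, SE 0.08, adjusted p = 0.00328, -0.34 without replicate 5), though not called in males alone. Kng1 measured 1832 to 2646 CPM with a median of 2060.1 in WT ASK1i and 2019 to 5043 CPM with a median of 3977 in KI ASK1i (log2 fold change 0.84, SE 0.13, adjusted p = 2.98e-06, 0.92 without replicate 5). Kng2 measured 240.5 to 369 CPM with a median of 275 and 303 to 942 CPM with a median of 709.3 (log2 fold change 1.18, SE 0.12, adjusted p = 7.57e-09, 1.28 without replicate 5). For both kininogens 9 of 10 KI libraries exceeded all WT libraries, replicate 5 being the exception.

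Of the protein C genes, Proc was lower here too, at 333 to 434 CPM with a median of 365 against 173 to 353 CPM with a median of 215 (log2 fold change -0.69, SE 0.10, adjusted p = 5.08e-07, -0.78 without replicate 5). Pros1 was higher, at 66.1 to 86.0 CPM with a median of 74.2 against 60.7 to 186 CPM with a median of 151 (log2 fold change 0.93, SE 0.11, adjusted p = 5.76e-08, 1.03 without replicate 5). Procr was apart in all 10 KI libraries, at 0.961 to 1.40 CPM with a median of 1.16 against 1.49 to 10.0 CPM with a median of 6.26 (log2 fold change 2.50, SE 0.22, adjusted p = 1.25e-09, 2.65 without replicate 5). Thbd was called higher here, at 3.51 to 11.7 CPM with a median of 4.97 against 4.91 to 20.8 CPM with a median of 10.3 (log2 fold change 1.19, SE 0.24, adjusted p = 0.000135, 1.26 without replicate 5), and 4 of 10 KI libraries exceeded every WT library. Proz was called lower (log2 fold change -0.36, SE 0.10, adjusted p = 0.0038, -0.34 without replicate 5), a call also lost in males alone. Serpinc1 was lower, at 1851 to 2241 CPM with a median of 2016 against 921 to 2064 CPM with a median of 1083 (log2 fold change -0.79, SE 0.11, adjusted p = 2.85e-07, -0.93 without replicate 5), and Serpind1 too (log2 fold change -0.35, SE 0.08, adjusted p = 0.000629, -0.37 without replicate 5). Serpina10 was higher, at 100.1 to 154 CPM with a median of 134 against 92.7 to 852 CPM with a median of 586 (log2 fold change 1.88, SE 0.21, adjusted p = 3.62e-08, 2.01 without replicate 5).

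Plaur was again apart in all 10 KI libraries, at 0.359 to 1.07 CPM with a median of 0.546 against 1.25 to 12.6 CPM with a median of 5.82 (log2 fold change 3.32, SE 0.30, adjusted p = 1.66e-09, 3.50 without replicate 5). Plat was higher (0.324 to 1.00 CPM against 0.305 to 2.33 CPM, log2 fold change 1.01, SE 0.31, adjusted p = 0.0061, 1.16 without replicate 5), a call lost with replicate number in the fit. Plau measured 1.30 to 2.85 CPM with a median of 2.32 and 1.58 to 4.83 CPM with a median of 2.73 and was called at the margin (log2 fold change 0.48, SE 0.21, adjusted p = 0.0454, 0.58 with an adjusted p of 0.00946 without replicate 5). The call was lost in 7 alternative fits and on leaving out any 1 of 9 libraries (WT ASK1i replicates 2, 3, 4 or 1P, KI control replicates 2 or 3 or KI ASK1i replicates 1, 2 or 2P). Cpb2 was higher, at 361 to 483 CPM with a median of 408 against 322 to 1693 CPM with a median of 1221 (log2 fold change 1.44, SE 0.15, adjusted p = 7.57e-09, 1.57 without replicate 5), and replicate 5 was below every WT library. Plg (-0.04, SE 0.09, -0.04 without replicate 5) and Serpinf2 (-0.15, SE 0.10, -0.12 without replicate 5) were not called. Hrg missed the threshold by little (log2 fold change 0.29, SE 0.13, adjusted p = 0.0505) and was called without replicate 5 (0.33 with an adjusted p of 0.021). It passed in 7 alternative fits and on leaving out any 1 of 16 libraries (WT control replicates 1, 3, 8, 1P or 2P, WT ASK1i replicates 5, 7 or 1P, KI control replicates 1, 4 or 1P or KI ASK1i replicates 2, 4, 5, 1P or 2P).

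No member passed the test for the ASK1i diet in either genotype. In WT, 0 members were called against 1.13% (higher) and 0.268% (lower) of all genes, and 1 member had an unadjusted p under 0.05. In KI, 0 members were called against 0% and 0.0536%, again with 1 member under an unadjusted p of 0.05. DESeq2 and limma-voom called 0 members in both. The 3 members with the smallest p in WT were Serpinf2, Hrg and F11. Serpinf2 lay at 641 to 940.4 CPM with a median of 741 in WT control and 741 to 1049 CPM with a median of 895 in WT ASK1i, overlapping (log2 fold change 0.21, SE 0.10, adjusted p = 0.33). Hrg lay at 915 to 1265 CPM with a median of 1155 and 1171 to 1530.4 CPM with a median of 1315 (log2 fold change 0.24, SE 0.13, adjusted p = 0.396), and F11 at 37.8 to 79.0 CPM with a median of 53.2 and 44.3 to 98.5 CPM with a median of 71.98 (log2 fold change 0.34, SE 0.19, adjusted p = 0.44).

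In KI the 3 smallest p-values belonged to Plau, Thbd and Hrg. Plau measured 3.37, 4.44, 5.69, 6.10 and 6.44 CPM in KI control and 1.58 to 4.83 CPM with a median of 2.73 in KI ASK1i, and 7 of 10 ASK1i libraries lay below all 5 control libraries. Its log2 fold change was -0.78 (SE 0.24), with a 95% interval of -1.24 to -0.32, an unadjusted p of 0.00195 and an adjusted p of 0.365 in edgeR. Without replicate 5 it was -0.70 (SE 0.22, adjusted p = 0.34). Thbd lay at 6.48, 6.73, 8.01, 8.99 and 9.82 CPM and 4.91 to 20.8 CPM with a median of 10.3 (log2 fold change 0.54, SE 0.28, adjusted p = 0.506, 0.59 without replicate 5), and Hrg at 1025, 1186, 1231, 1558 and 1717 CPM and 1056 to 2155 CPM with a median of 1609 (log2 fold change 0.27, SE 0.15, adjusted p = 0.517, 0.31 without replicate 5). The fibrinogen chains were not called on the diet in either genotype. For Fga the intervals of the log2 fold change were -0.54 to 0.18 in WT and -0.23 to 0.61 in KI, which leave room for differences in both directions.

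The interaction term asks whether the genotype difference changed with diet. It called 0 of the 34 genes in edgeR, beside 0% of all genes tested in each direction, with 1 member under an unadjusted p of 0.05 and 0 called by DESeq2 or limma-voom. The smallest p-values were those of Plau (log2 fold change -0.68, SE 0.32, adjusted p = 0.575), Serpinf2 (log2 fold change -0.28, SE 0.15, adjusted p = 0.638) and Thbd (log2 fold change 0.59, SE 0.37, adjusted p = 0.692). Here a negative value means that the KI to WT ratio was lower on the ASK1i diet. Each genotype comparison shares libraries with each diet comparison, so their values are set side by side and not correlated.

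**Figure D4:**
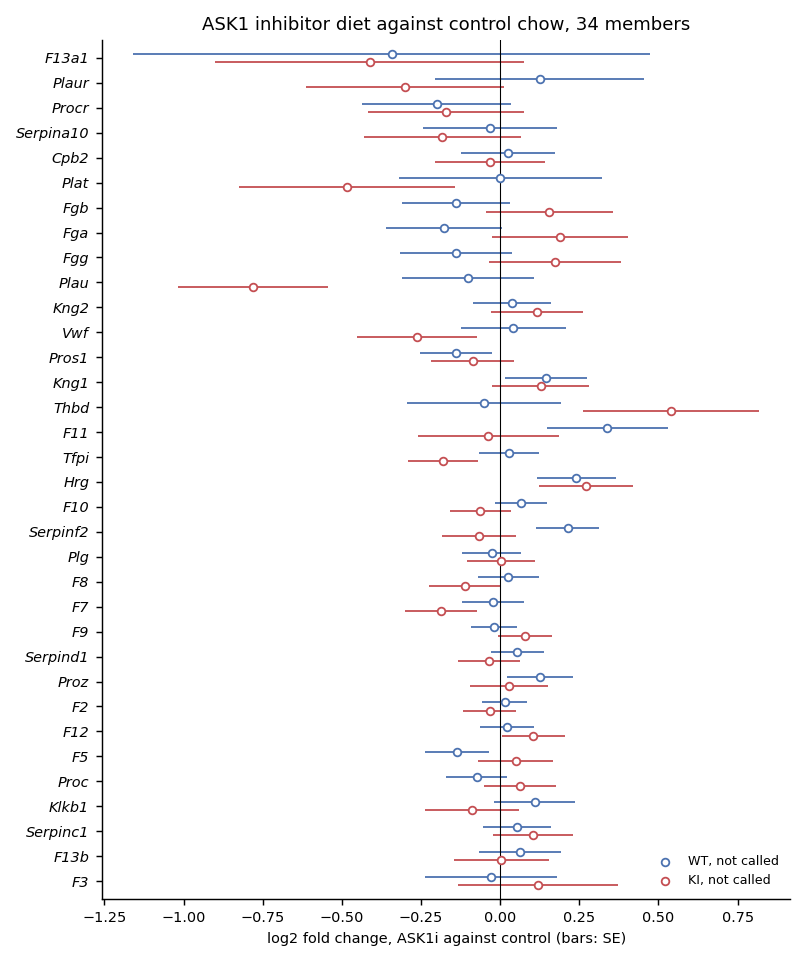
Log2 fold change of each of the 34 genes, ASK1i diet against control chow, in WT (blue) and KI (red), with bars of 1 standard error. All points are open, since none passed an adjusted p of 0.05, and Plau in KI had the lowest value (-0.78).

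Genes next to the cascade were counted on control chow in 4 lists. Of 5 genes of the vitamin K cycle and of factor secretion, 0 were higher and 4 lower, among them Vkorc1l1 (log2 fold change -0.63, SE 0.09, adjusted p = 1.77e-06) and Vkorc1 (log2 fold change -0.64, SE 0.13, adjusted p = 0.000123), reductases that recycle vitamin K for the carboxylation of factors II, VII, IX and X. On the ASK1i diet 2 of the 5 were lower. Of 6 tested plasminogen activator inhibitors and plasminogen receptors, 4 were higher and 1 lower. In that list the smallest p-values belonged to S100a10 (log2 fold change -2.35, SE 0.27, adjusted p = 1.52e-07) and Anxa2 (log2 fold change 2.07, SE 0.31, adjusted p = 1.20e-06), whose products form 1 complex that binds plasminogen, and they moved in opposite directions. On the other diet 3 of the 6 were higher and 1 lower. Of 3 tested thrombin and protease-activated receptors, F2rl2 (log2 fold change 2.67, SE 0.65, adjusted p = 0.000409) and F2rl1 (log2 fold change 1.31, SE 0.38, adjusted p = 0.00406) were higher, and 2 of 3 were on the ASK1i diet. Of 8 other plasma inhibitors and relatives, 5 were higher and 2 lower, with C4bp (log2 fold change 1.84, SE 0.21, adjusted p = 1.71e-08), the alpha chain of the complement regulator C4b-binding protein, and Fgl2 (log2 fold change 2.50, SE 0.29, adjusted p = 3.77e-08), a membrane prothrombinase, at the smallest p. On the ASK1i diet 5 were higher and 3 lower. The background on each diet is as given above.

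Hepatocyte markers were counted beside the lower members. On control chow 4 of the 6 were called lower and 0 higher, and their sum was 101036 to 132304 CPM in WT control and 33286 to 53804 in KI control. On the ASK1i diet 2 of the 6 were lower and 1 was higher, beside 12 lower members, and the sum was 99837 to 137768 CPM in WT and 35732 to 108968 in KI. Members known as hepatocyte products were found on both sides, with Fga, Fgb, Fgg, Serpina10, Cpb2 and the kininogens higher in the libraries where F13b, Serpinc1, Proc, Klkb1 and F5 were lower. The part of hepatocyte content in the lower members was not tested.

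Sets of libraries given by titles, L codes and sex were examined as far as they allow. The calls came from these same libraries, so the direction within a set is a description and no independent check. On control chow, all 26 called members had the same direction within numbered titles (4 KI, 8 WT libraries, 23 members apart), within P titles (1 KI, 2 WT, 26 apart) and within males (4 KI, 3 WT, 24 apart). A single female library in KI control, replicate 1, leaves no female comparison. The L code and genotype cannot be told apart on control chow within any 1 code, and a fit with L code as a term called 13 members higher and 8 lower, beside 18.3% and 15.8% of all genes. On the ASK1i diet, all 28 called members kept their direction within L1 (4 KI, 2 WT, 25 apart), as in males (5 KI, 4 WT, 21 apart) and in females (5 KI, 4 WT, 8 apart, and 22 without replicate 5). Within L7 (1 KI, 2 WT, 27 apart) 26 of 28 did, the exceptions being F8 (0.16) and Thbd (-0.80), as log2 ratios of mean CPM with no test. The share of all genes apart was not counted in any of these sets, so the numbers apart have no background. With 1 KI and 2 WT libraries, being apart says little. Plg and Hrg, which were not called, were apart in both P titles and L7.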

How the data were processed

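Liver RNA was isolated with miRNeasy columns and made into TruSeq Stranded mRNA libraries, per the labels' protocols. The submitters' processing notes name RSEM 1.2.14, STAR 2.4 and CASAVA 1.8.2 and the build mm10, without settings. The authors deposited unnormalised expected counts per gene (whole numbers in 91.4% to 93.7% of rows). After rounding, they were fitted with edgeR 4.0.16 under R 4.3.3 (TMM, filterByExpr by group, robust quasi-likelihood fit of group, sex and title set over all 33 libraries). Two-sided p-values were adjusted by the Benjamini-Hochberg method over 14934 genes. The prior count of log2 fold changes was 0.125, and 95% intervals span 1.96 SE on each side. In simulated data for KI against WT on control chow (14934 genes), 67, 67 and 66 genes were changed by folds of 1.5, 2 and 4. Of these, 49.3%, 85.1% and 98.5% were called, and 1.27% of all calls were false. The changed genes left out those of lowest count and were far fewer than the 27.8% and 28.9% called in the data. These rates may therefore not hold for the data. Any 2 libraries of a group differed by more than counting noise, the lowest chi-square per gene over 128 pairs being 24.0. The check can find 1 library sequenced again, and found none, but not 2 libraries made from 1 mouse.

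The members and lists were chosen with earlier results of these data known. Values per library were given for the 3 members of each role list with the smallest p, plus others added after their values were seen, the 3 with the smallest p in each diet comparison, and up to 2 called genes of each related list. Gene starts in the table count from 0, so 1 was added. Alternatives were other scalings, DESeq2 1.42.0, limma-voom (limma 3.58.1), other count filters and covariates, a replicate block, subsets and each library left out in turn. Run prefix, and L code without KI ASK1i replicate 5, were added after seeing the data.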

Additional observations from a re-analysis of the deposited data

Results flagged for a closer look

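Dixon's test was used to search each of the 136 sets of a member within a group of 5 to 10 libraries for 1 outlying library. Genes of 1 library can vary together, so the sets are not separate trials. Such a library was found in 18 sets, where chance gives about 1 in 20 for independent sets of normal values. Of these, 8 were KI ASK1i replicate 5. That library was the lowest of its group for Fga (3517 CPM), Fgb (3088 CPM), Fgg (2147 CPM), Cpb2 (322 CPM) and Pros1 (60.7 CPM). It was the highest for F13b (181 CPM), Proc (353 CPM) and Serpinc1 (2064 CPM). In all 8 genes the other 9 libraries of the group lay on the far side from the WT libraries.

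WT control replicate 1P was the highest of its group for the 3 fibrinogen chains, at 6015 CPM for Fga, 4422 CPM for Fgb and 3572 CPM for Fgg, and for F5 at 849 CPM. WT ASK1i replicate 7 was the highest for F2 (1602 CPM), F10 (425 CPM) and Proc (434 CPM). WT ASK1i replicate 2P was the lowest for Plg (1731 CPM). Thbd, thrombomodulin, was far above the rest in WT control replicate 3 (11.3 CPM) and in WT ASK1i replicate 6 (11.7 CPM), both above every KI control library.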

How the results depend on the processing

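Across 16 alternative fits and 33 fits with 1 library left out, the members called higher on control chow numbered 13 to 19 and lower 7 to 11, against 16 and 10. On the ASK1i diet they numbered 13 to 17 and 8 to 12, against 16 and 12. The range over the fits without 1 library was 15 to 18 and 8 to 11 on control chow and 14 to 17 and 11 to 12 on the ASK1i diet. Calls over all genes moved as well. Across all these fits they ran from 2737 to 5016 higher and 2366 to 4597 lower on control chow. On the ASK1i diet they ran from 3852 to 5332 higher and 3183 to 4693 lower. In the diet comparisons and the interaction 0 members were called in every one of these fits. One value changed sign after being called: F11 on control chow, at -0.13 with L code (adjusted p = 0.787), the cause of which was not tested.

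Whether replicate numbers pair the libraries is not known. Of 37 pairs of libraries with the same number, 14 had deviations that correlated above 0.1, with a range from -0.21 to 0.36. Pairs with different numbers were not compared, so these values cannot decide it. With a replicate block 15 members were higher and 7 lower on control chow, beside 3798 and 3695 of all 14934 genes. On the ASK1i diet 13 and 11 members were called, beside 4138 and 4064 of all genes. The calls lost were those of F2, F9, F11 and Serpind1 on control chow and of Tfpi, Plat, Plau and F8 on the ASK1i diet. Library totals moved the median of all genes on control chow from -0.03 to 0.10. F2, F9 and Serpind1 then lost their calls, while F10, Thbd and Hrg gained one.

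Counts over all genes moved by more than 1.5 times with L code on control chow (2737 higher and 2366 lower, against 4145 and 4321). For the diet in WT (169 and 40) they did so with DESeq2 (262 and 103), L code (18 and 5), numbered titles alone (16 and 3), the run prefix (77 and 17), L code without KI ASK1i replicate 5 (35 and 8), a replicate block (111 and 22), males alone (0 and 0) and only the groups compared (491 and 210). Without KI ASK1i replicate 5 there were 307 and 68, and other single libraries gave 80 to 123 and 16 to 31. For the diet in KI (0 and 8), DESeq2 called 19 and 18, other fits 0 to 2 and 0 to 13. For the interaction (0 and 0), DESeq2 called 11 and 5, limma-voom 0 and 2. Depth limits F13a1, Plat, Plaur, Procr and Plau most, whose WT levels lay at or below 3.42 CPM.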
